A study of Mus musculus with 38 samples.

Results

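Mouse embryonic stem cells grown for 8 days in 2i/L, which holds a MEK inhibitor and a GSK3 inhibitor, were compared with the same line grown for 24 days in GSK3i/L, which holds the GSK3 inhibitor alone. The 5 libraries were chosen by medium and day: replicates 1, 2 and 3 of 2i/L and replicates 2 and 3 of GSK3i/L at 24 days, out of 14 RNA libraries and 38 samples in the series. All came from E14 (129/Ola), an XY line kept feeder-free on gelatin in normoxia, plated in serum medium with LIF and moved to the test medium on the next day. 2i/L contained 1 µM of the MEK inhibitor (PD03259010 in the labels) and 3 µM of the GSK3 inhibitor CHIR99021. GSK3i/L contained 3 µM CHIR99021 and no MEK inhibitor, and both media shared N2B27, a defined serum-free base, with leukaemia inhibitory factor (LIF). The groups therefore differed at once in the MEK inhibitor and in the time in culture, 8 days against 24 days, and these cannot be told apart here. Only this 1 line was used, and the labels do not say whether replicates were separate cultures, so p-values measure the spread between these samples. Poly(A) RNA was sequenced, and the deposited values are log2 reads per 1000000 reads (RPM). Levels below are linear RPM, and differences are log2 values of 2i/L minus GSK3i/L at 24 days with their SE, tested with limma.

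Embryonic stem cells make FGF4, which drives the kinase cascade from RAF through MEK to ERK and moves cells towards differentiation. Blocking MEK cuts this cascade and its feedback genes. Blocking GSK3 spares beta-catenin from destruction, so that it enters the nucleus, relieves the repressor TCF7L1 and acts with other TCF/LEF factors on Wnt target genes. Together with LIF, which acts through STAT3, the inhibitor pair holds cells in the naive state of the early epiblast, with low DNA methylation.

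The 5 libraries had scaling totals of 11360000 to 15120000 reads. Log2 values correlated at 0.984 to 0.987 within 2i/L, at 0.981 within GSK3i/L at 24 days and at 0.858 to 0.878 between the groups. Of 14120 genes tested, 4042 (28.6%) were at least 2-fold higher in 2i/L and 2127 (15.1%) at least 2-fold lower (limma adjusted p under 0.05). The groups did not overlap for 79.5% of tested genes, with 2i/L higher for 51.9% and lower for 27.6%. The median gene stood 0.41 higher in 2i/L. That surplus depended on scaling: after median centring 2231 genes were higher and 3146 lower, and after quantile normalization 2646 and 2773. With no minimum fold, the rule used for gene lists below, median centring gave 4557 higher (32.3%) and 4739 lower (33.6%). The balance of long against short transcripts also moved with the groups. This score, the mean log2 level of 36 long transcripts minus that of 36 short respiratory chain transcripts, was 0.09, 0.24 and 0.31 in 2i/L, against −3.66 and −3.06 in GSK3i/L at 24 days. It differed within other media too, at 0.37, −2.07 and −1.73 in MEKi/L at 8 days (1 µM MEK inhibitor alone) and 0.09, −1.79 and −2.82 in GSK3i/L at 8 days. A fit of all 14 libraries with the score as a covariate is therefore given beside the results as "with the score". That fit holds a term for each group, so the slope of the score comes from differences within groups. Those were largest in MEKi/L and GSK3i/L at 8 days, where replicate 1 stood apart from replicates 2 and 3. The slope was then applied to the larger gap between 2i/L and GSK3i/L at 24 days. Whether it holds over that gap was not tested. In that fit 975 genes were higher and 365 lower, and the median SE of a gene was 0.33, against 0.19 without the score. It draws on GSK3i/L libraries at 8 days and serum libraries, whose deposited values follow 1 shared distribution rather than plain RPM. Levels given below for GSK3i/L at 8 days are on that scale.

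**Figure D1:**
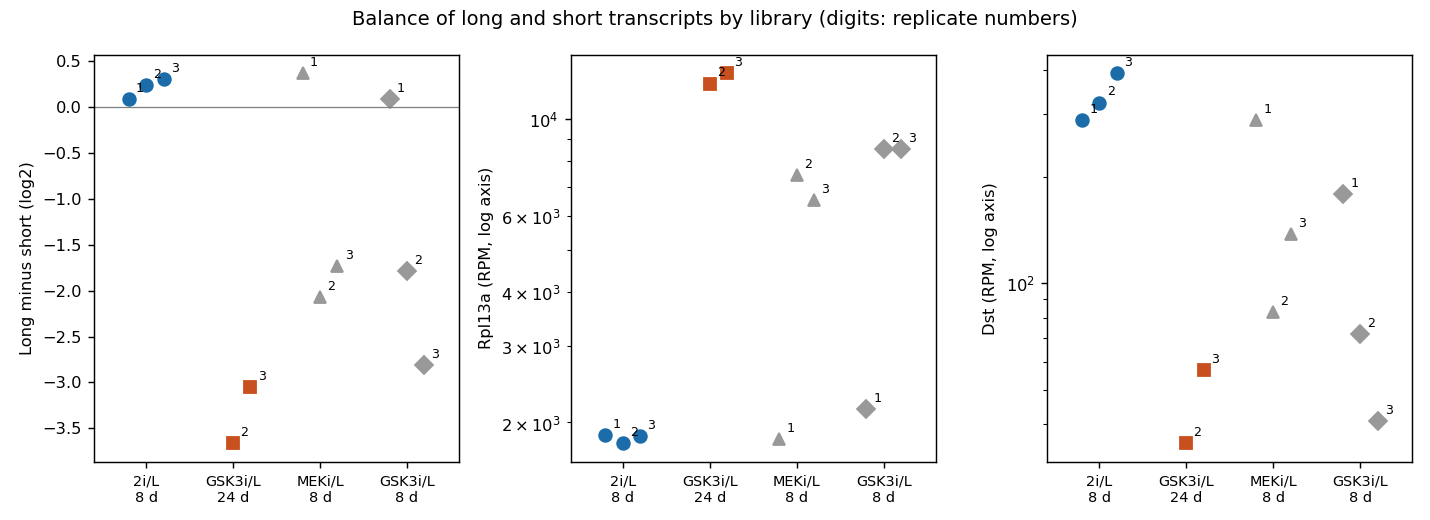
Each point is 1 library (digits give the replicate number). The panels show the long-minus-short score in log2 units and the levels of Rpl13a and Dst in RPM on log axes, for 2i/L at 8 days, GSK3i/L at 24 days and, in grey, the other serum-free media at 8 days. For the score and Rpl13a, the 3 libraries of 2i/L lie close to replicate 1 of MEKi/L and of GSK3i/L at 8 days and apart from both 24-day libraries. Values of GSK3i/L at 8 days follow 1 shared distribution rather than plain RPM.

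Pou5f1, the gene of the core pluripotency factor OCT4, was at 1169, 1080 and 1111 RPM in 2i/L and at 1288 and 1104 RPM in GSK3i/L at 24 days. The groups overlapped, and the difference of −0.09 ± 0.11 did not pass (adjusted p = 0.47), whereas other scalings gave opposite calls, lower after median centring (−0.51, adjusted p = 0.010) and higher after quantile normalization (0.49, adjusted p = 0.0010). Without replicate 3 at 24 days it was also lower (−0.20, adjusted p = 0.044). Sox2, its partner on DNA, was at 642, 682 and 728 RPM in 2i/L, against 265 and 275 RPM. Nanog was at 722, 678 and 773 RPM in 2i/L, against 475 and 388 RPM. Both were higher in 2i/L, by 1.34 ± 0.11 and 0.75 ± 0.12 (adjusted p = 2.0e-06 and 0.00027), and neither pair of groups overlapped. Nanog held with the score (1.24, adjusted p = 0.0011) and did not pass after median centring (0.33, adjusted p = 0.079), and Sox2 did not pass with the score (0.19, adjusted p = 0.69). These embryonic stem cell markers were present in all 5 libraries.

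MEK and ERK come first, since of these groups 2i/L alone held the MEK inhibitor. Of 24 tested genes that ERK signalling induces, 8 were lower in 2i/L, 8 were higher and 8 did not pass. Over all tested genes, 23.1% were lower and 46.5% higher at the same threshold, 69.6% in all. These shares are the background for every list count below. The list's median was −0.11, and with the score 8 members were lower and 2 higher (2.79% and 9.78% of all genes). After median centring 11 were lower and 7 higher, beside 33.6% and 32.3% of all tested genes. Those shares also stand behind the centred counts of later lists.

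The members that were lower included feedback inhibitors and the ETS factor Etv4, while the ETS factors Ets2 and Etv5 were higher. Spry4, a Sprouty protein that damps receptor tyrosine kinase signalling, was at 2.13, 0.47 and 0.40 RPM in 2i/L, against 34.2 and 28.4 RPM in GSK3i/L at 24 days. Spry1, of the same family, was at 1.75, 2.85 and 3.24 RPM in 2i/L, against 13.1 and 17.6 RPM. Every 2i/L library lay below both 24-day libraries for these genes, with differences of −5.40 ± 0.59 and −2.59 ± 0.31 (adjusted p = 1.5e-05 and 2.5e-05). Dusp6 encodes the cytoplasmic phosphatase that removes phosphate from ERK. It was at 10.1, 7.90 and 8.07 RPM in 2i/L, against 38.6 and 28.0 RPM (−1.93 ± 0.21, adjusted p = 1.3e-05). Dusp4, a nuclear ERK phosphatase, was at 1.60, 1.26 and 3.64 RPM in 2i/L, against 12.5 and 18.5 RPM (−2.96 ± 0.41). Neither phosphatase overlapped between the groups. Etv4, an ETS transcription factor downstream of FGF, was at 21.1, 21.3 and 14.6 RPM in 2i/L, against 59.9 and 65.3 RPM (−1.74 ± 0.19). All 5 of these genes held with the score, at −2.77 for Dusp6, −3.03 for Etv4, −3.35 for Spry1, −3.44 for Dusp4 and −7.06 for Spry4. MEKi/L at 8 days, which also holds the MEK inhibitor, had 0.19 to 1.21 RPM of Spry4 and 7.01 to 12.7 RPM of Etv4, while GSK3i/L at 8 days had 35.3 to 91.6 RPM and 54.4 to 149 RPM.

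Other genes of the pathway did not follow. Ets2, an ETS factor that ERK phosphorylates, was at 50.6, 55.2 and 62.3 RPM in 2i/L, against 9.80 and 10.5 RPM (2.46 ± 0.16, adjusted p = 3.8e-07; 1.42 with the score). Ccnd1, the gene of cyclin D1, was at 145, 159 and 150.0 RPM in 2i/L, against 32.8 and 43.6 RPM (2.00 ± 0.15; 1.13 with the score). Etv5, a close relative of Etv4, was also higher in 2i/L at 243, 219.8 and 238 RPM, against 86.3 and 94.1 RPM, but not with the score (0.17, adjusted p = 0.65). Immediate early genes were low on both sides. Egr1 was at 0.61, 0.24 and 0.33 RPM in 2i/L, against 1.14 and 1.06 RPM (−1.60 ± 0.57, adjusted p = 0.027), and lost its call without any 1 of 4 of the 5 libraries (adjusted p of 0.052 to 0.12). Fos, Myc and Junb did not pass, with differences of 0.10, −0.34 and 0.18.

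**Figure D2:**
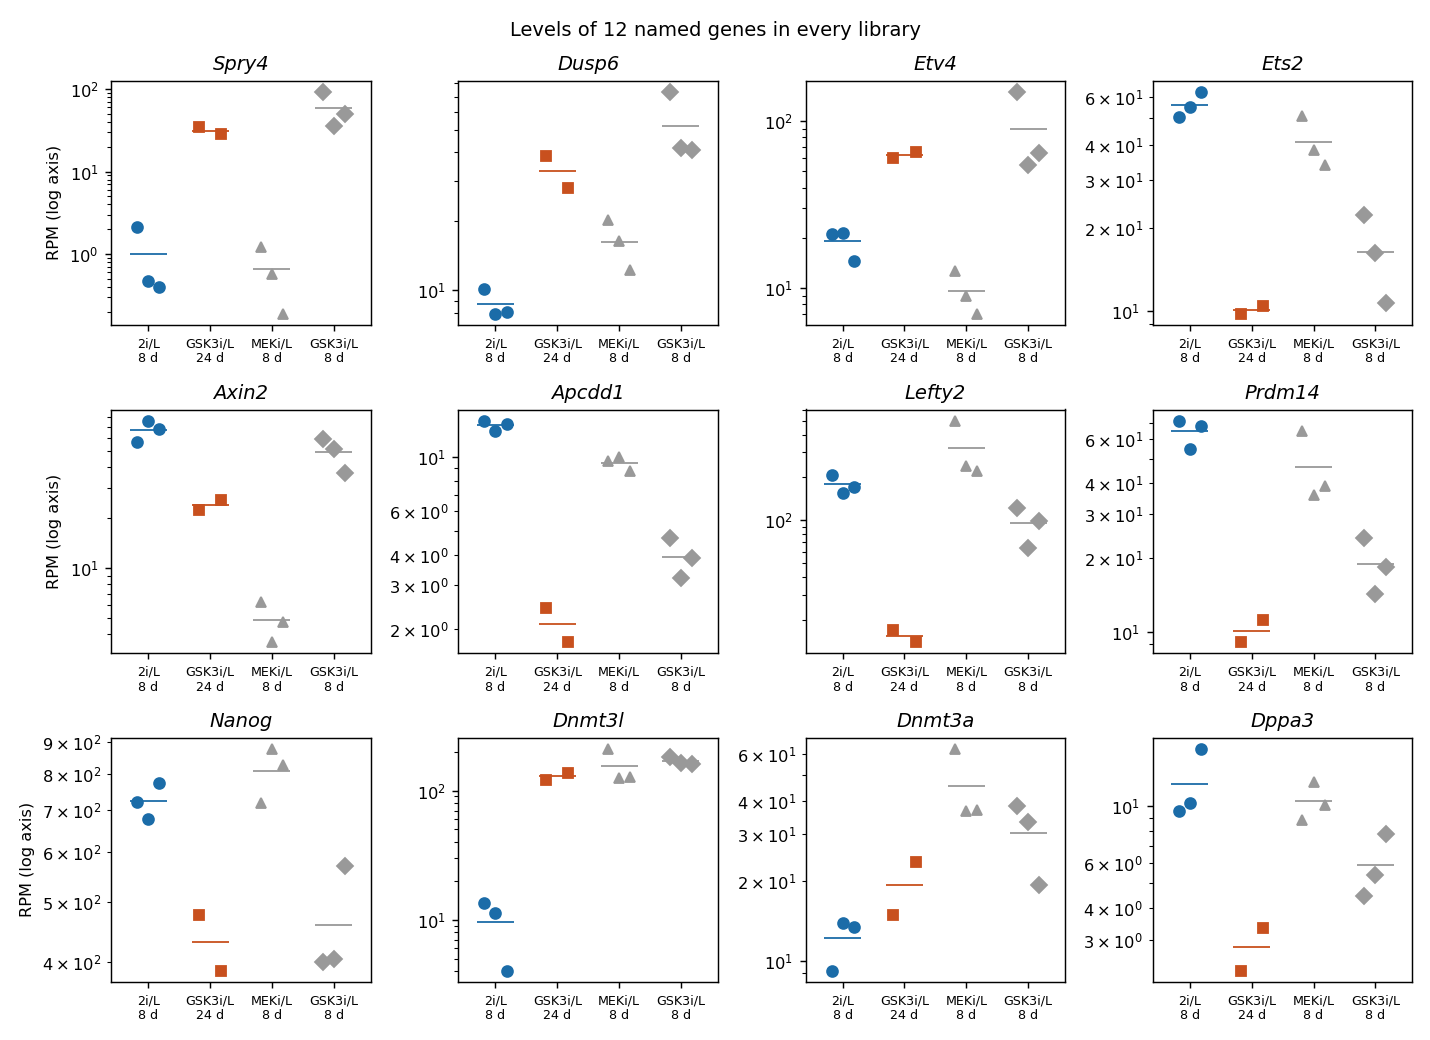
Each point is 1 library and each bar the mean of its group, in RPM on a log axis, for 2i/L at 8 days (circles), GSK3i/L at 24 days (squares) and, in grey, MEKi/L and GSK3i/L at 8 days. The 2i/L and 24-day groups do not overlap in any of the 12 panels: Spry4, Dusp6, Etv4, Dnmt3l and Dnmt3a are lower in 2i/L and the other 7 genes higher. The panels are chosen genes, and 79.5% of all tested genes do not overlap. Values of GSK3i/L at 8 days follow 1 shared distribution rather than plain RPM.

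The promoter of Dusp6 and those of Axin2 and Sp5, Wnt feedback and target genes described next, are shown because the 3 genes report on the 2 inhibited pathways. Each sequence holds the 250 bases before the start, from RefSeq on GRCm38.p6, all on the plus strand, at chr10:99262981-99263230 for Dusp6, chr11:108920099-108920348 for Axin2 and chr2:70474673-70474922 for Sp5. Capitals mark matches on either strand to the TCF/LEF letters CTTTGAT, the ETS letters CCGGAA or a CArG box (the serum response factor site).
Dusp6: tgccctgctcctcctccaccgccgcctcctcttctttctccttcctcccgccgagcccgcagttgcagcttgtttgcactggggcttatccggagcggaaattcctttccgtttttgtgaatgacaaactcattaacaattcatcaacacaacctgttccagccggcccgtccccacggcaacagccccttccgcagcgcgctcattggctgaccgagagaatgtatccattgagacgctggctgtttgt
Axin2: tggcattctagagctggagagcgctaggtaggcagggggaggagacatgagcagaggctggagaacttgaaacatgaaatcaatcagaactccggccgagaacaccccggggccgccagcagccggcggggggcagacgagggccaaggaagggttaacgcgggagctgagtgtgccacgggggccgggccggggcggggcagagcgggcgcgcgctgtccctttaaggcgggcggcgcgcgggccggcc
Sp5: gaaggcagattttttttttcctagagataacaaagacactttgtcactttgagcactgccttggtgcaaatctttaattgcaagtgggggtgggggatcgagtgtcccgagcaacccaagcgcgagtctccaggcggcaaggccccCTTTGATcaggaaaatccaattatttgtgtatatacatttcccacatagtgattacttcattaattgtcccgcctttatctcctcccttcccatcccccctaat
The TCF/LEF letters stood in Sp5, from base −104 to base −98 before the start. None of these exact patterns matched in the windows of Dusp6 and Axin2, and shorter or other forms of the sites were not searched. Over all 32851 promoters of the table, 3.21% held the TCF/LEF letters, 12% the ETS letters and 1.47% a CArG box. These are descriptions of letters, not of bound sites.

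Wnt target genes were compared under the same dose of GSK3 inhibitor in both groups. Of 21 tested members, 10 were higher in 2i/L, 5 lower and 6 did not pass. These shares, 47.6% higher and 23.8% lower, were near those over all tested genes (46.5% and 23.1%). The median was 0.75, against 0.41 for all genes, and median centring left 10 higher and 6 lower, while with the score 3 were higher and 3 lower. Axin2, the scaffold of the beta-catenin destruction complex and a general Wnt feedback gene, was at 57.0, 76.3 and 67.7 RPM in 2i/L, against 22.2 and 25.5 RPM (1.48 ± 0.16, adjusted p = 1.3e-05). Sp5, a zinc finger factor and direct target, was at 17.1, 30.4 and 22.2 RPM, against 11.4 and 7.31 RPM (1.31 ± 0.26, adjusted p = 0.0011). The groups did not overlap for either gene, but neither passed with the score (0.62 and −0.28, adjusted p = 0.24 and 0.86), and Sp5 also lost its call when 8 or 14 libraries shared 1 estimate of the spread (adjusted p = 0.079 and 0.071). GSK3i/L at 8 days had 36.9 to 59.2 RPM of Axin2 and MEKi/L 3.6 to 6.28 RPM. The secreted antagonist Notum was at 64.2, 53 and 37.2 RPM in 2i/L, against 8.28 and 9.33 RPM, and held with the score (2.51 ± 0.22; 1.85, adjusted p = 0.013). Apcdd1, a membrane-bound Wnt antagonist, was at 14, 12.7 and 13.6 RPM in 2i/L, against 2.43 and 1.76 RPM, and held too (2.70 ± 0.24; 2.44, adjusted p = 0.0043).

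Some Wnt-responsive genes went the other way. Lef1, a TCF/LEF factor that is itself a target and marks formative cells, was at 1.22, 1.19 and 0.86 RPM in 2i/L, against 5.09 and 5.81 RPM (−2.34 ± 0.34; −3.49 with the score). T, the gene of brachyury, the master factor of the primitive streak, was at 1.98, 4.66 and 4.50 RPM in 2i/L, against 13.6 and 10.2 RPM (−1.77 ± 0.36, adjusted p = 0.0013), and did not pass with the score (−1.03, adjusted p = 0.52). Ascl2, a basic helix-loop-helix target that is also imprinted, was at 0.91, 1.11 and 1.45 RPM in 2i/L, against 3.42 and 7.84 RPM (−2.19 ± 0.41; −2.63 with the score). The receptor gene Fzd7 was lower as well (−0.68 ± 0.16, and −1.66 with the score).

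The Nodal and activin pathway signals through SMAD2 and SMAD3 and supports the epiblast. Of 15 tested members, 11 were higher in 2i/L and 2 lower, with a median of 0.97, and 10 were higher and 3 lower after median centring. Lefty2, a secreted Nodal antagonist that Nodal itself induces, was at 209, 156 and 172 RPM in 2i/L, against 17.0 and 13.9 RPM (3.53 ± 0.16, adjusted p = 5.8e-08). Pcsk6, a convertase that cuts the Nodal precursor, was at 177, 141 and 154 RPM, against 16.3 and 23.6 RPM (3.00 ± 0.17). Smad3 was at 60.9, 62.0 and 50.3 RPM, against 7.52 and 7.75 RPM (2.91 ± 0.16). Nodal itself was at 87.9, 71.2 and 74.7 RPM, against 33.9 and 29.9 RPM (1.29 ± 0.14). These 4 genes, with no overlap between groups, were also the 4 that were higher with the score, by 2.65, 1.61, 1.71 and 1.68. The co-receptor gene Tdgf1 was lower in 2i/L, at 603, 475 and 684 RPM, against 1146 and 1005 RPM (−0.89 ± 0.15), but not with the score (0.12, adjusted p = 0.84).

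BMP signalling works with LIF through the ID proteins. Of 16 tested members 8 were higher in 2i/L and 3 lower (median 0.75), and 7 were higher and 4 lower after median centring. The first shares, 50% and 18.8%, were near those over all tested genes (46.5% and 23.1%). With the score 2 were higher and 2 lower. The ligand gene Bmp4 was at 4.42, 1.98 and 1.26 RPM in 2i/L, against 24.0 and 18.5 RPM (−3.25 ± 0.43; −4.02 with the score). Id1, a classical BMP target, was at 1.52, 1.66 and 2.12 RPM, against 7.44 and 6.08 RPM (−1.94 ± 0.30; −2.73 with the score). Id4 went the other way, at 32.6, 30.3 and 36.8 RPM in 2i/L, against 8.58 and 5.99 RPM (2.21 ± 0.20; 1.81 with the score). So did Smad7, an inhibitor of the SMAD receptors, at 172, 148 and 160.2 RPM, against 31.0 and 27.3 RPM (2.46 ± 0.13; 1.2 with the score). Id1 and Id4, targets of the same pathway, thus differed in opposite directions.

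LIF was in both media. Of 16 tested genes of the LIF-STAT3 list 10 were higher in 2i/L and 1 was lower (median 1.15), and 9 were higher and 2 lower after median centring. Il6st, which encodes the shared receptor subunit GP130, was at 138, 148 and 138 RPM in 2i/L, against 30.5 and 34.2 RPM (2.13 ± 0.13; 1.40 with the score). Msc, the gene of the factor musculin, was at 29.6, 24.9 and 22.9 RPM, against 2.96 and 1.41 RPM (3.65 ± 0.29; 5.20 with the score). Socs3, the feedback inhibitor of the receptor, did not pass (0.02). Among FGF genes, 5 of 10 were higher (50%, against 46.5% of all tested genes) and 1 was lower (10%, against 23.1%). Median centring gave 4 higher and 2 lower. Fgf10 was at 23.1, 22.3 and 24.2 RPM in 2i/L, against 2.35 and 3.17 RPM (3.08 ± 0.21; 2.33 with the score), and Fgf4, the main FGF ligand of these cells, was 0.99 ± 0.18 higher but did not pass with the score (0.56, adjusted p = 0.30).

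Naive pluripotency genes stood mostly higher in 2i/L. Of 19 tested members, 15 were higher, 2 lower and 2 did not pass, with a median of 1.36. After median centring 13 were higher and 2 lower, and with the score 9 were higher and 1 was lower. Tfcp2l1, a STAT3 target that sustains self-renewal, was at 1166, 1157 and 1250 RPM in 2i/L, against 145 and 220.2 RPM (2.74 ± 0.16, adjusted p = 2.3e-07; 1.12 with the score, adjusted p = 0.023). Prdm14, a repressor that keeps FGF signalling and the de novo methyltransferase genes low, was at 71.3, 54.8 and 68.0 RPM, against 9.11 and 11.2 RPM (2.67 ± 0.17; 1.83 with the score). Nr5a2, a nuclear receptor that binds the Pou5f1 promoter, was at 124, 104 and 108 RPM, against 23.2 and 23.0 RPM (2.28 ± 0.13; 1.11 with the score). No 2i/L library of these genes lay as low as a 24-day library, a lack of overlap seen in 51.9% of all genes in this direction, 27.6% in the other and 79.5% in either. Sox21 rose furthest among the members with more than 3 reads in each group, with 30.6, 35.2 and 29.3 RPM in 2i/L, against 2.13 and 1.67 RPM (4.07 ± 0.21; 3.72 with the score). Esrrb, Klf4 and Tbx3, further factors of the naive network, were 1.36, 1.34 and 1.81 higher and did not pass with the score (−0.04, 0.18 and 0.52). Zfp42, the gene of the naive marker REX1, was lower in 2i/L, at 442, 348 and 346 RPM, against 752 and 555 RPM (−0.78 ± 0.16; −0.08 with the score, adjusted p = 0.92).

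Among general pluripotency genes, 7 of 15 were higher in 2i/L and 6 lower. Median centring gave 6 higher and 7 lower, and the score 2 higher and 4 lower. Sall4, a zinc finger partner of OCT4, was at 337, 309.9 and 319 RPM, against 65.6 and 71.5 RPM (2.23 ± 0.12; 0.71 with the score, adjusted p = 0.048). Trim71, which represses differentiation transcripts and is itself a let-7 target, was at 73.8, 83.3 and 85.5 RPM, against 11.6 and 11.3 RPM (2.82 ± 0.14; 0.93 with the score). Both blockers of let-7 maturation were lower. Lin28a was at 81.5, 104 and 66.1 RPM in 2i/L, against 132 and 154 RPM (−0.79 ± 0.18, and −2.24 with the score). Lin28b was at 5.03, 5.30 and 5.22 RPM, against 14.9 and 15.4 RPM (−1.55 ± 0.20, and −2.03 with the score). Lin28a missed the threshold when all 14 libraries shared 1 spread (adjusted p = 0.056). Dppa4 was lower by either fit (−1.36 ± 0.16; −0.90 with the score).

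Formative and primed genes, which switch on as cells leave the naive state, were lower more often than higher. Of 21 tested members, 10 were lower in 2i/L, 7 higher and 4 did not pass, with a median of −0.65. Median centring gave 11 lower and 4 higher, and the score 11 lower and 1 higher. Car4, a carbonic anhydrase gene, had 0, 0 and 0.13 RPM in 2i/L, against 20.3 and 2.55 RPM (adjusted p = 4.4e-05). The 24-day libraries differed by several-fold for it, replicate 2 being the higher. Sox3, a SOX factor of the epiblast and neural plate, was at 0.08, 0.08 and 0.13 RPM in 2i/L, against 0.53 and 1.06 RPM (−3.02 ± 0.75, adjusted p = 0.0042), and missed the threshold without replicate 3 at 24 days (adjusted p = 0.094). Fgfbp1, which releases FGFs from the matrix, was at 1.68, 0.87 and 0.93 RPM, against 11.5 and 5.99 RPM (−2.91 ± 0.40; −2.32 with the score). Tcf15, a formative-state factor, was at 2.90, 2.85 and 2.25 RPM, against 9.27 and 6.87 RPM (−1.59 ± 0.27; −2.36 with the score). Otx2, which directs the exit to the formative state, was the exception that held with the score: 58.3, 34.8 and 42.3 RPM in 2i/L, against 10.9 and 7.05 RPM (2.33 ± 0.24; 2.01). Fgf5, the usual marker of primed cells, was too low to test.

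**Figure D3:**
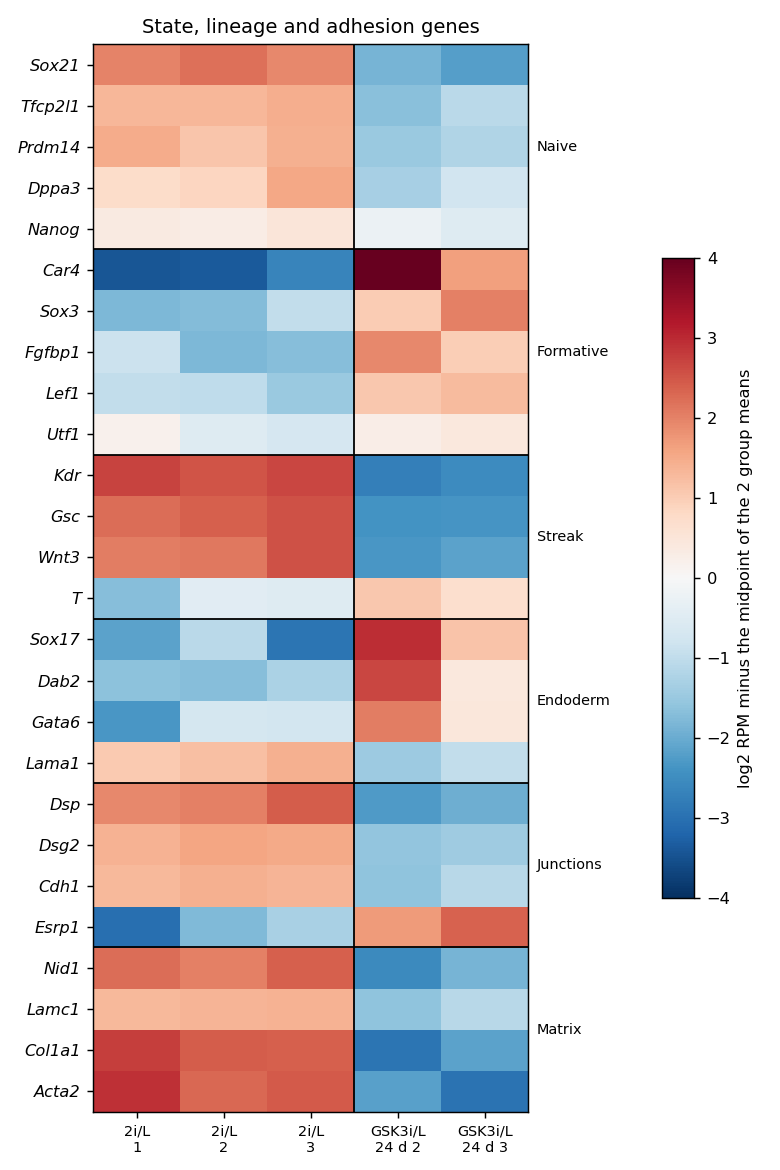
Heat map of log2 RPM of 26 named genes in the 3 libraries of 2i/L and the 2 of GSK3i/L at 24 days, each row centred on the midpoint of the 2 group means (colour scale cut at −4 and 4; libraries with 0 reads drawn at 1 read). Rows are chosen members grouped by theme. Naive and matrix rows are higher in 2i/L and formative rows lower, while streak, endoderm and junction rows hold both directions. Car4, Sox17 and Dab2 differ between 24-day replicates. Members that went against the rows of their theme, such as Zfp42, Otx2, Col4a1 and Col4a2, are not drawn.

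DNA methylation genes did not move as a block. Of 16 tested writers and maintenance genes 11 were higher in 2i/L, 3 lower and 2 did not pass (median 0.80). After median centring 8 were higher and 3 lower, and with the score 2 were higher and 3 lower. Dnmt3l, the catalytically inactive partner that stimulates de novo methylation, was at 13.6, 11.3 and 4.03 RPM in 2i/L, against 121 and 137 RPM. Every 2i/L library lay far below both 24-day libraries (−3.92 ± 0.40, adjusted p = 9.1e-06; −4.53 with the score). MEKi/L at 8 days held 126 to 210 RPM of Dnmt3l and GSK3i/L at 8 days 160 to 182 RPM. Dnmt3l and its neighbour Aire overlap, and no source used here says whether counting kept to the strand. The de novo enzyme gene Dnmt3a was at 9.22, 13.9 and 13.4 RPM in 2i/L, against 15.0 and 23.6 RPM (−0.65 ± 0.25, adjusted p = 0.037; −1.86 with the score). It lost its call under 7 of the other settings, with adjusted p up to 0.30 and −0.32 without replicate 3 at 24 days. Dnmt3b was at 79.9, 103 and 57.9 RPM in 2i/L and at 69.7 and 87.4 RPM at 24 days, overlapping with a difference of 0.00 ± 0.21, but was lower with the score (−1.43, adjusted p = 0.010).

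The maintenance side was higher in 2i/L without the score. Dnmt1, which copies methylation to new strands, was at 465, 461 and 471 RPM in 2i/L, against 116 and 177 RPM (1.70 ± 0.16). Uhrf1, which recruits it to replicating DNA, was at 702, 594 and 579.6 RPM, against 162 and 263 RPM (1.59 ± 0.18). With the score neither passed (−0.05 and 0.13, adjusted p = 0.92 and 0.80). Dppa3, which takes UHRF1 off chromatin, was at 9.6, 10.3 and 16.7 RPM, against 2.28 and 3.35 RPM (2.10 ± 0.29), and was higher with the score as well (2.74, adjusted p = 0.00048). Setdb1, which methylates histone H3 at retroelements, held too (1.50 ± 0.14, and 0.78 with the score). Zfp57, which guards imprints, was lower (−0.72 ± 0.16) but did not pass with the score (−0.65, adjusted p = 0.21).

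Of 17 demethylation genes 7 were higher in 2i/L and 3 lower, but 6 were higher and 7 lower after median centring, and 1 and 1 with the score. The first shares, 41.2% and 17.6%, were near those over all tested genes (46.5% and 23.1%). Tet1, which oxidises methylcytosine, was at 399, 335 and 416 RPM in 2i/L, against 72.9 and 106 RPM (2.12 ± 0.17). Tet2 was at 156, 125 and 140.2 RPM, against 28.3 and 32.0 RPM (2.22 ± 0.14). Neither passed with the score (−0.31 and 1.31, adjusted p = 0.56 and 0.19). Methylation levels were not analysed here.

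The genes with the largest rises in 2i/L had 0 or few reads at 24 days. Bhmt, which remethylates homocysteine from betaine, was at 24.3, 18.5 and 18.7 RPM in 2i/L, against 1 read in replicate 2 and 0 reads in replicate 3 at 24 days (adjusted p = 3.6e-08). Lrrc15, a leucine-rich repeat membrane protein gene, was at 16.0, 13.5 and 15.7 RPM, against 0 reads in both. With 3 reads per library as the floor, that is at least 61-fold higher. Aspa, which splits N-acetylaspartate, was at 7.85, 5.53 and 7.60 RPM, against 0 reads in both, at least 28-fold higher. Calcoco2, an autophagy receptor gene, was at 129, 95.0 and 89.4 RPM, against 1.14 and 0.62 RPM (6.94 ± 0.27). Ddr2, a collagen-binding receptor kinase, was at 20.7, 13.9 and 21.6 RPM, against 0.38 RPM and 0 reads. Its difference was 6.73 ± 0.54, and 4.04 to 7.86 under the other settings, so its size is uncertain. Mal, Lbh, Rims1, Kcnd3, St8sia5 and Sh3rf2 were also among the 12 largest rises, and each gene named here passed with the score (adjusted p up to 0.0041). Most were also present in MEKi/L at 8 days, with 152 to 219 RPM of Calcoco2 and 10.9 to 14.5 RPM of Bhmt, and low in GSK3i/L at 8 days, with 2.84 to 3.62 RPM and 0 to 0.18 RPM.

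Bhmt belongs to a list of alpha-ketoglutarate and one-carbon enzymes in which 17 of 24 tested members were higher in 2i/L and 4 lower (median 0.63). After median centring 11 were higher and 5 lower, and with the score 8 were higher and 1 was lower. Bhmt2, which uses S-methylmethionine, was at 38.3, 36.0 and 35.4 RPM, against 3.27 and 2.11 RPM (3.80 ± 0.22; 4.06 with the score). Dmgdh, the next enzyme of choline breakdown after the betaine step, was at 99.1, 96.0 and 89.6 RPM, against 8.05 and 6.96 RPM (3.66 ± 0.15; 3.65 with the score). Bhmt, Bhmt2 and Dmgdh all lie on chromosome 13. Mtr, the methionine synthase, was higher too (2.37 ± 0.14; 1.21 with the score). Gnmt, which uses up S-adenosylmethionine, was at 0.91, 0.32 and 0.60 RPM in 2i/L, against 5.54 and 4.76 RPM (−3.21 ± 0.48), and did not pass with the score (−1.77, adjusted p = 0.11).

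Most of the 12 largest falls were in genes with few or no reads in 2i/L, and Tmsb4x and Calca were exceptions. Plac8, a small cysteine-rich protein gene, was at 0.15 RPM, 0 reads and 0.26 RPM in 2i/L, against 39.6 and 45.9 RPM (−8.23 ± 0.52; −5.75 with the score). Its difference ran from −8.68 to −5.27 under the other settings, so its size is uncertain. S100g, a vitamin D-dependent calcium binder, had 0 reads in all 3 libraries of 2i/L, against 26.1 and 10.7 RPM, at least 83-fold lower. Spink3, a trypsin inhibitor gene, also had 0 reads in 2i/L, against 17.0 and 3.87 RPM, at least 47-fold lower. Ctsh, a cathepsin gene, was at 0 reads, 0.32 and 0.26 RPM in 2i/L, against 49.4 and 5.46 RPM. It passed at the edge with the score (−4.85, adjusted p = 0.050) and not with voom weights (adjusted p = 0.12). Epha1, an ephrin receptor gene, was at 0.23, 0.40 and 0.40 RPM, against 8.74 and 8.63 RPM (−4.72 ± 0.42; −6.37 with the score). Tmsb4x, which binds actin monomers, was the most abundant of these, at 35.7, 32.1 and 26.1 RPM in 2i/L, against 986 and 692 RPM (−4.73 ± 0.18; −2.59 with the score). For S100g, Spink3, Ctsh and Car4 replicate 2 at 24 days was well above replicate 3.

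Endoderm genes were lower more often than higher. Of 14 tested members 8 were lower in 2i/L, 4 higher and 2 did not pass, with a median of −1.25. Median centring gave 10 lower and 3 higher, and the score 6 lower and 1 higher. In these bulk samples fewer cells of a type and less RNA per cell cannot be told apart. Sox17, an endoderm master factor, was at 0.23, 0.47 and 0.13 RPM in 2i/L, against 7.67 and 2.20 RPM (−4.08 ± 0.68, adjusted p = 0.00030; −4.44 with the score). Dab2, an endocytic adaptor of the primitive endoderm, was at 1.22, 1.19 and 1.59 RPM, against 24.4 and 5.11 RPM (−3.08 ± 0.53; −3.32 with the score). Gata6, the primitive endoderm factor that opposes Nanog, was at 0.15, 0.47 and 0.46 RPM, against 3.19 and 1.06 RPM (−2.51 ± 0.68, adjusted p = 0.0068). Replicate 2 at 24 days was the higher for all 3, and Gata6 did not pass without it (−1.71, adjusted p = 0.12). Gata4 did not pass (−1.0, adjusted p = 0.056), and Foxa2, Sox7, Afp and Ttr were too low to test. The 4 genes that were higher in 2i/L included Lama1 and Lamb1, which encode laminin chains. Summed levels of the list were 785 to 900.3 RPM in 2i/L, against 338 and 250.3 RPM, and came mostly from Lama1 and Sparc.

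Primitive streak and mesoderm genes were more often higher, with T, Pdgfra and Mesp2 lower. Of 13 tested members 9 were higher in 2i/L, 3 lower and 1 did not pass (median 1.92), and 7 were higher and 4 lower after median centring. Gsc, the organiser homeobox gene, was at 14.9, 16.7 and 18.6 RPM in 2i/L, against 0.61 and 0.62 RPM (4.76 ± 0.25, adjusted p = 1.2e-07; 4.40 with the score). Kdr, the VEGF receptor gene, was at 3.28, 2.85 and 3.17 RPM, against 1 read in each 24-day library. Wnt3, the ligand that starts the streak, was at 1.60, 1.66 and 2.25 RPM, against 0 reads in both, at least 7-fold higher. Mixl1, Mesp1, Evx1 and Msgn1 were too low to test. The two-cell-like list, a check for a rare totipotent-like state, had 0 reads in all 5 libraries for all of its 10 listed genes found in the table.

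Neural markers were mixed and trophoblast markers more often higher in 2i/L. Of 10 tested neural genes 5 were higher in 2i/L and 3 lower (4 and 3 after median centring; 1 and 2 with the score). The first shares, 50% and 30%, were near those over all tested genes (46.5% and 23.1%). Nes, the intermediate filament nestin, was at 39.8, 35.3 and 42.2 RPM in 2i/L, against 2.35 and 5.20 RPM (3.48 ± 0.29; 1.86 with the score). Crmp1, a semaphorin signalling gene of neurons, was lower (−1.79 ± 0.38; −2.91 with the score). Of 16 tested trophoblast genes 10 were higher and 2 lower (8 and 3 after median centring; 5 and 1 with the score). A further 16 neural and 6 trophoblast genes were too low to test. Elf3, an epithelial ETS factor, was at 72.5, 71.9 and 82.8 RPM, against 8.66 and 12.2 RPM (2.88 ± 0.17; 2.58 with the score). Cdx2, the trophectoderm factor, was at 0.99, 1.74 and 1.39 RPM, against 1 read and 0 reads.

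Epithelial junction genes split: 10 of 24 tested members were higher in 2i/L and 8 lower (10 and 10 after median centring; 5 and 5 with the score). Dsp, the desmosomal plaque protein, was at 51.7, 55.2 and 73.0 RPM in 2i/L, against 2.81 and 3.52 RPM (4.24 ± 0.20, adjusted p = 7.6e-08; 1.64 with the score). Dsg2, a desmosomal cadherin, was at 102, 114 and 111 RPM, against 12.9 and 14.4 RPM (3.00 ± 0.14; 1.92 with the score). Cdh1, the gene of E-cadherin, was at 682, 739 and 706 RPM, against 91.0 and 127 RPM (2.72 ± 0.14; 1.17 with the score). Esrp1, a splicing factor of epithelia, was among the lower members, at 0.61, 1.42 and 1.98 RPM, against 15.9 and 25.0 RPM (−4.06 ± 0.45; −4.74 with the score). Epcam, an epithelial adhesion molecule, was at 18.8, 28.1 and 29.6 RPM, against 89.2 and 84.5 RPM (−1.80 ± 0.19; −1.81 with the score). Crb3, an apical polarity gene, was lower as well (−2.23 ± 0.19; −2.18 with the score).

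Basement membrane and integrin genes were higher in 18 of 23 tested members and lower in 2 (median 1.89; 15 and 4 after median centring; 8 and 4 with the score). Nid1, which links laminin to collagen IV, was at 609.8, 521 and 684 RPM in 2i/L, against 22.0 and 35.7 RPM (4.42 ± 0.19; 2.85 with the score, adjusted p = 1.7e-06). Lamc1, the common laminin gamma chain, was at 603, 631 and 642 RPM, against 80.1 and 112 RPM (2.72 ± 0.15; 0.76 with the score). The vitronectin receptor subunit Itgav was higher too (2.78 ± 0.15; 1.29 with the score). Type IV collagen was the exception. Col4a1 was at 7.70, 8.22 and 7.93 RPM in 2i/L, against 25.8 and 15.9 RPM (−1.35 ± 0.23; −3.07 with the score), and Col4a2 was lower with it (−1.15 ± 0.22; −2.98 with the score).

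Fibroblast and mesenchymal genes were higher in 13 of 18 tested members and lower in 1 (median 2.02, and 2.00 with genes at 0 reads set to their bounds; 12 and 1 after median centring; 5 and 1 with the score). Most were low in both groups. Col1a1 was at 7.77, 6.24 and 6.02 RPM in 2i/L, against 0.15 and 0.26 RPM (5.05 ± 0.38; 3.64 with the score). Col3a1 was at 1.91, 1.98 and 1.65 RPM, against 0 reads in both, at least 7-fold higher. Acta2, the smooth muscle actin gene, was at 5.18, 3.40 and 3.77 RPM, against 2 reads and 0 reads. GSK3i/L at 8 days stood far above both groups, with 30.5 to 86.1 RPM of Col1a1, 51.0 to 124 RPM of Col3a1 and 33.5 to 38.3 RPM of Acta2. Thy1 was lower in 2i/L (−1.92 ± 0.37; −2.16 with the score). Twist2, Prrx1, Postn, Dcn and Lum were too low to test.

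**Figure D4:**
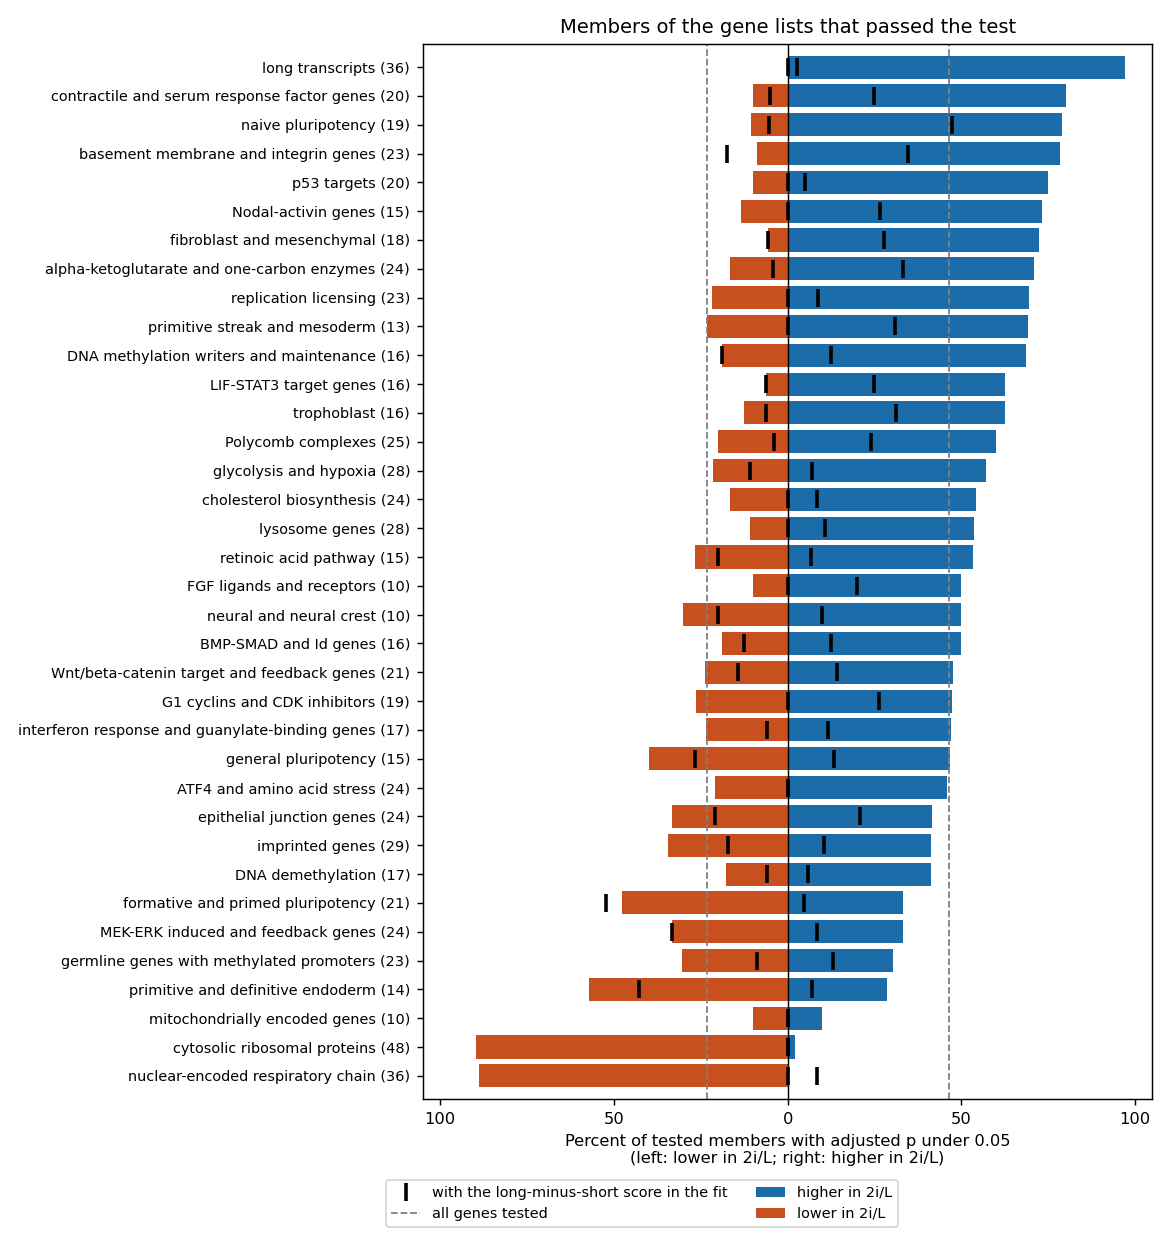
Bars give the percent of tested members of each gene list (number tested in brackets) that were higher in 2i/L (right) or lower (left) than in GSK3i/L at 24 days, at an adjusted p under 0.05. Dashed lines mark the same percent over all tested genes (46.5 higher, 23.1 lower) and black ticks the percent with the long-minus-short score in the fit. Naive genes reach furthest right among the pluripotency lists. Many lists reach left of the dashed line, furthest the ribosomal (89.6) and respiratory chain (88.9) lists, then endoderm (57.1), formative (47.6) and general pluripotency (40) genes.

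Metabolic genes gave mixed counts. Of 28 glycolysis and hypoxia genes 16 were higher in 2i/L and 6 lower (median 0.63; 11 and 9 after median centring). With the score 2 members were higher and 3 lower. The glucose transporter gene Slc2a1 was at 282, 210.2 and 167 RPM in 2i/L, against 55.7 and 52.6 RPM (1.99 ± 0.19; 1.01 with the score). Pdk1, a hypoxia-inducible kinase that shuts pyruvate dehydrogenase, was at 59.4, 39.4 and 43.1 RPM, against 194 and 148 RPM (−1.86 ± 0.19; −2.48 with the score). Egln3, an oxygen-sensing hydroxylase that hypoxia-inducible factor induces, was at 1.45, 1.03 and 1.79 RPM, against 6.76 and 5.99 RPM (−2.20 ± 0.33; −2.92 with the score). The neuronal enolase Eno2 was lower too (−2.56 ± 0.30; −1.78 with the score). Bnip3, a mitophagy receptor of the same response, was at 14.3, 6.09 and 3.77 RPM, against 63.7 and 43.1 RPM, and did not pass with the score (−0.90, adjusted p = 0.38).

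Of 15 tested members of the retinoic acid pathway 8 were higher in 2i/L and 4 lower (7 and 5 after median centring). The first shares, 53.3% and 26.7%, were near those over all tested genes (46.5% and 23.1%). With the score 1 member was higher and 3 were lower. Crabp2, which carries retinoic acid to its receptors, was at 1.07, 0.40 and 0.86 RPM, against 3.87 and 5.99 RPM (−2.76 ± 0.48). Cyp26a1, the enzyme that clears retinoic acid, had 0 reads in 2i/L, against 0.84 and 0.70 RPM, at least 3-fold lower. Dhrs3, which turns retinal back to retinol, was at 1.75, 1.74 and 1.85 RPM, against 0.23 RPM and 0 reads.

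Imprinted genes split, with 12 of 29 tested members higher in 2i/L and 10 lower (9 and 13 after median centring; 3 and 5 with the score). Dio3, the paternally expressed deiodinase gene of the Dlk1-Dio3 locus on chromosome 12, was at 13.6, 17.8 and 11.2 RPM in 2i/L, against 1.14 and 0.79 RPM (3.87 ± 0.29; 6.03 with the score). Meg3, the maternally expressed RNA of the same locus, was at 144, 135 and 141 RPM, against 271 and 412 RPM (−1.26 ± 0.16; −1.18 with the score). Slc38a4, an amino acid transporter gene, was at 99.7, 150 and 162 RPM, against 8.51 and 11.6 RPM (3.76 ± 0.22; 3.06 with the score). Neighbours on the distal part of chromosome 7 were lower, with Phlda2 at −1.49 ± 0.18 and Cdkn1c at −1.36 ± 0.24, though neither passed with the score (adjusted p = 0.085 and 0.083).

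The most abundant genes that were called moved with the long-minus-short score. Among cytosolic ribosomal protein genes 43 of 48 were lower in 2i/L and 1 was higher, and in the nuclear-encoded respiratory chain 32 of 36 were lower. Rpl13a was at 1871, 1792 and 1858 RPM in 2i/L, against 12094 and 12788 RPM at 24 days (−2.76 ± 0.09). In MEKi/L it was at 1827, 7428 and 6523 RPM. The GSK3i/L values at 8 days, on the shared distribution, were 2144 in replicate 1 and 8549 in replicates 2 and 3. An equal value there is a shared place in that distribution, not an equal measured RPM. Its difference was −0.08 with the score (adjusted p = 0.91), and 0 of the 48 ribosomal genes were called in that fit. Many ribosomal protein genes have processed pseudogenes, so their counts are uncertain. The respiratory chain and long transcript lists define the score, so their loss in that fit follows from its construction. Abundant genes that were higher in 2i/L, such as the chaperone gene Hsp90ab1 at 7715, 7209 and 6244 RPM, against 3382 and 3076 RPM (1.12 ± 0.11), and the elongation factor gene Eef2 (1.44 ± 0.14), did not pass with the score either (adjusted p = 0.61 and 0.79). Of 6169 genes called without the score 1051 were called in the same direction with it, which is 17.0% of the first list and 78.4% of the 1340 called with it. What part the balance of long and short transcripts had in each result was not tested beyond this covariate.

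**Figure D5:**
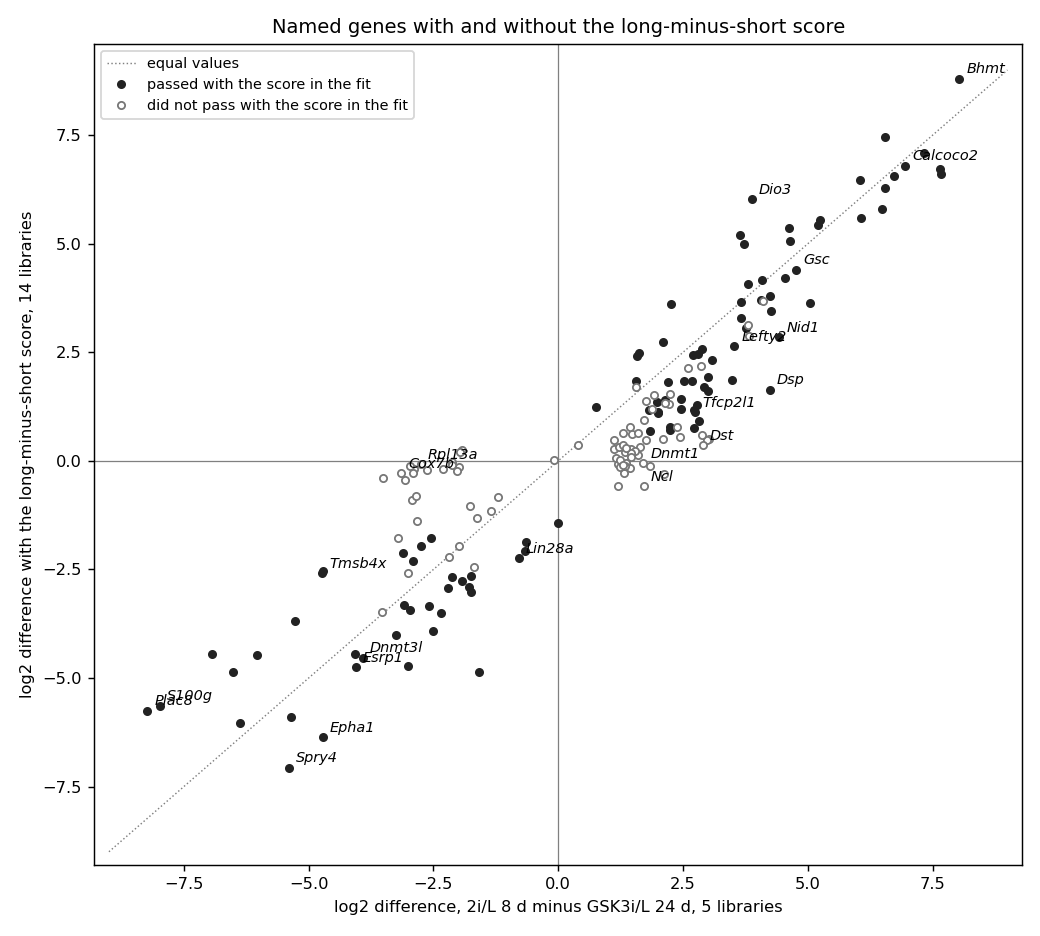
Each point is 1 named gene, with its log2 difference (2i/L at 8 days minus GSK3i/L at 24 days) in the 5 libraries on the horizontal axis and with the long-minus-short score in a fit of 14 libraries on the vertical axis; genes with 0 or few reads in a group are drawn at their fitted value. Filled points passed with the score: Spry4, Epha1, Dnmt3l, Bhmt, Calcoco2 and Dio3 lie near or beyond the dotted line of equal values, while Rpl13a, Cox7b, Dst, Ncl and Dnmt1 lie near 0 on the vertical axis.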

How the data were processed

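RNA was measured in 14 libraries, of which 5 enter the main comparison. The authors deposited 1 table of log2 RPM values (log2 reads per 1000000 reads) for 25965 genes with GRCm38 coordinates. GRCm38, HISAT2, Trim Galore 0.6.5 and Bismark 0.22.3 (for bisulfite reads) are named in the submitters' processing notes. The file name points to SeqMonk. For the annotation, the counting options and the use of strand, the answer is not given in the sources used here. In the 5 libraries at least 99.98% of the deposited values, on the linear scale, were whole multiples of 1 read (within 0.02 of a read), and 0 reads stood at 0.9 of a read. The 14-library fits also used 6 libraries matched by the authors to 1 shared distribution. Bisulfite data were not used here.

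Genes that reached 0.5 RPM in 2 or more of the 5 libraries were tested with limma 3.58.1 in R 4.3.3 on the deposited log2 values (group as the only term, trend and robust variances, checked on simulated data), with Benjamini-Hochberg adjustment over all 14120 genes. List members needed an adjusted p under 0.05 and no minimum fold. A floor of 3 reads corresponded to 0.20 to 0.26 RPM per library and covers counting error only. Genes with 1 to 3 reads in a group are given by level only. Symbols were used as deposited, and 25035 identifiers were also found in a reference table of names. For 57 genes the table holds several rows, which were kept apart.

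The rule for named genes took the 12 largest and 12 smallest differences among called genes that did not overlap between groups and reached 5 RPM (no predicted genes or pseudogenes), the 6 most abundant called genes in each direction, key genes, and from each list up to 4 members with the largest differences plus defining members. The 5 libraries, the rule and the 37 gene lists (885 of 907 entries found) were chosen with earlier results of these data known. Some genes stand in several lists, so list counts are not separate observations. Examples are Cdx2 in the Wnt, primitive streak and trophoblast lists and Lef1 in the Wnt and formative lists. List members outside this rule were named after their values were seen. Some genes that the rule picks are not reported here, but count in lists and totals. Of the 182 named genes 131 had an entry in the RefSeq promoter table.

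For the replicate numbers shared between the groups (2 and 3), deviations of same-numbered libraries from their group means correlated at −0.04 and 0.06. With 2 libraries at 24 days those deviations are exact opposites, so this check cannot tell whether the numbers pair the samples. No 2 replicates agreed within sampling noise. Alternatives were other filters, pseudocounts, scalings, sets of libraries, weights and thresholds, a replicate block, and leaving out each library.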

Additional observations from a re-analysis of the deposited data

How the results depend on the processing

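Against 4042 genes higher and 2127 lower, quantile normalization gave 2646 higher, median centring 2231 higher, no minimum fold 6567 and 3265, at least 4-fold 1042 and 814, and the long-minus-short score with 14 libraries 975 and 365. Leaving out 1 library gave 3378 to 4432 higher and 1848 to 2133 lower genes. Whether the replicate numbers pair the samples is not known. The replicate block gave 4146 higher and 2089 lower genes and ended the call of 1 of 180 named genes that had one, Dnmt3a (−0.46). With the score the sign reversed for Eef2 (−0.17), Pabpc1 (−0.57), Ncl (−0.58), Trim28 (−0.081), Sp5 (−0.28), Dnmt1 (−0.051), Tet1 (−0.31), Esrrb (−0.040), Dppa5a (0.25), L1td1 (−0.12), Srebf2 (−0.11), Slc7a5 (−0.13), Gmnn (0.21) and Zmat3 (−0.10), and after median centring for mt-Nd1 (−0.011). Pou5f1 (−0.09) and Dnmt3b (0.00) had no call. The sign of Pou5f1 turned with the score (0.017), after quantile normalization (0.49) and without replicate 2 at 24 days (−0.20 to 0.020 over the libraries left out). That of Dnmt3b turned with the score (−1.43), after quantile normalization (−0.37) and median centring (−0.42), with voom weights (−0.0015), with the replicate block (−0.016) and without any 1 of 3 libraries (−0.20 to 0.22 over the libraries left out). The cause was not tested. Of the 180 named genes with a call, with the score 66 kept their direction and lost the call, and 100 kept both. The planned correction for protein length was not run, since no protein table was used here. At 11360000 to 15120000 reads per library, differences between groups below the 3-read floor of 0.20 to 0.26 RPM were not detectable, and 2 libraries at 24 days limit the precision of that group.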

Other observations

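Cell cycle genes were mixed. Of 19 G1 cyclin and inhibitor genes 9 were higher in 2i/L and 5 lower, 7 and 7 after median centring, and 5 and 0 with the score. The first shares, 47.4% and 26.3%, were near those over all tested genes (46.5% and 23.1%). Ccnd3, the gene of cyclin D3, was at 283, 258 and 260.5 RPM in 2i/L, against 70.6 and 79.7 RPM (1.83 ± 0.12; 0.69 with the score). Cdkn2a, which encodes the inhibitors p16 and ARF, was at 46.2, 56.8 and 50.8 RPM, against 20.7 and 14.6 RPM (1.55 ± 0.18; 1.84 with the score). Of 23 replication licensing genes 16 were higher and 5 lower, 12 and 6 after median centring and 2 and 0 with the score. Of 20 p53 targets 15 were higher and 2 lower, 9 and 5 after median centring and 1 and 0 with the score. Contractile and serum response factor genes were higher in 16 of 20 members and lower in 2. Median centring gave 12 higher and 3 lower, and the score 5 and 1. Zyx, a focal adhesion gene, was at 3.81, 3.64 and 3.90 RPM in 2i/L, against 12.2 and 13.2 RPM (−1.75 ± 0.22; −2.64 with the score).

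Polycomb genes were higher in 15 of 25 members and lower in 5. Median centring gave 12 higher and 8 lower, and the score 6 and 1. Jarid2, a PRC2 cofactor, was at 299, 269 and 301 RPM in 2i/L, against 57.7 and 65.5 RPM (2.23 ± 0.12; 0.77 with the score). Of 23 germline genes 7 were higher and 7 lower, 5 and 10 after median centring and 3 and 2 with the score. Mael, a piRNA pathway gene, was at 2.97, 2.21 and 5.88 RPM in 2i/L, against 28.4 and 20.5 RPM (−2.84 ± 0.36), and did not pass with the score (−1.39, adjusted p = 0.15). Of 17 interferon genes 8 were higher and 4 lower, 5 and 5 after median centring and 2 and 1 with the score. The first shares, 47.1% and 23.5%, were near those over all tested genes (46.5% and 23.1%). Bst2, the gene of tetherin, was at 17.6, 20.1 and 25.9 RPM in 2i/L, against 170.4 and 193 RPM (−3.12 ± 0.17; −2.11 with the score), while Oas1a, a sensor of double-stranded RNA, was higher (1.62 ± 0.22; 2.49 with the score). Of 28 lysosome genes 15 were higher and 3 lower, of 24 cholesterol genes 13 and 4, and of 24 ATF4 and amino acid stress genes 11 and 5. The ATF4 shares, 45.8% and 20.8%, were near those over all tested genes (46.5% and 23.1%). After median centring the lysosome list had 10 higher and 10 lower members, the cholesterol list 6 and 5 and the ATF4 list 3 and 7. With the score these lists had 3, 2 and 0 higher and 0 lower members. Of 10 mitochondrially encoded genes 1 was higher and 1 was lower, and 5 were lower after median centring.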
